A study of Homo sapiens with 10 samples.

Results

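The autophagy and mitophagy genes described here are 10 genes named by symbol, ULK1, BECN1, ATG5, ATG7, SQSTM1, MAP1LC3B, GABARAPL2, PINK1, BNIP3 and BNIP3L. Their symbols were matched through GENCODE 29 to the Ensembl identifiers of the deposited count tables, which list 63677 identifiers, and each symbol had 1 match. All 10 passed the filter on low counts and are among the 16756 genes tested. RS4;11 is an established cell line of B-cell precursor acute lymphoblastic leukaemia (BCP-ALL) with a rearranged KMT2A gene, and venetoclax (VEN) is an inhibitor of the anti-apoptotic protein BCL-2. The 10 lines compared all derive from RS4;11. VEN at rising doses gave the 5 VEN-insensitive lines (VENins), and the 5 VEN-sensitive controls (VENsens) received the solvent, DMSO. Each line gave 1 library of poly(A)-selected RNA, and the replicates are thus separately grown lines that share a parental line. The comparison of VENins with VENsens lines asks how the transcriptome differs once the cells have become insensitive to the drug. VENins lines remained on VEN, which was washed off before analysis, and VENsens lines grew without it, so that ongoing exposure and acquired insensitivity cannot be told apart.

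Gene counts summed to 20631907 to 28323643 per library in VENsens lines and to 21145316 to 25394653 in VENins lines. Levels are given as CPM, counts relative to a library's scaled total, after TMM normalization, which corrects for library size and composition with factors that lay between 0.986 and 1.01. The library of VENins line 5 stood apart from the other VENins libraries. Its gene counts differed from each of the 4 others with a chi-square of 13.3 to 14.3 per degree of freedom, while the 6 pairs among the others gave 4.29 to 9.63 and the 10 VENsens pairs 1.93 to 9.81. Results are therefore given with this library and, where it bears on them, without it. VENins and VENsens lines of the same number do not appear to be paired, since their deviations from the group means correlated between -0.103 and 0.028. A count of same-numbered pairs is thus a description only.

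The RNA carried the markers of the labelled cell type. All 10 B-cell precursor markers passed the filter, with PAX5 the most abundant by mean in VENsens lines and IGLL1 in VENins lines. Their summed level was 3564 CPM ± 38.8 (SD, n = 5) in VENsens and 3549 CPM ± 169 in VENins lines. The VENins mean rests in part on line 5, at 3842 CPM, while the other VENins lines had 3408 to 3519 CPM and the VENsens lines 3499 to 3594 CPM. All 5 markers of KMT2A-rearranged leukaemia were present as well, at a summed 1074 CPM ± 32.7 in VENsens lines and 1038 CPM ± 15.4 in VENins lines, with PROM1 the most abundant. T-cell markers summed to 1.21 CPM ± 0.127 and 1.07 CPM ± 0.129, with CD3E the only one of 5 that passed the filter. Monocyte and granulocyte markers summed to 9.90 CPM ± 1.42 and 11.2 CPM ± 0.975, most of it from CSF1R, with 2 of the 7 at 0 in every library. The 5 erythroid markers summed to 0.156 CPM ± 0.0817 and 0.1298 CPM ± 0.0902, and 3 of them were at 0 throughout. Of the B-cell precursor markers 5 had positive and 5 negative differences. The unadjusted p was under 0.05 for 3 of these 10 markers in each direction, beside 16.2% of all tested genes. Of all tested genes 0.197% were called, and of these markers only PAX5, a transcription factor that maintains B-lineage identity (edgeR adjusted p = 0.0272). Its level was 783 CPM ± 42.9 in VENsens lines against 631 CPM ± 34.7 in VENins lines, lower in each of the 5 same-numbered pairs, and its part in the values below was not tested.

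Autophagy delivers cytoplasm to the lysosome inside a newly formed vesicle, the autophagosome. A kinase complex around ULK1 starts the process, a lipid kinase complex that contains BECN1 marks the membrane, and a ubiquitin-like conjugation system with ATG7 and ATG5 attaches proteins of the ATG8 family, such as MAP1LC3B and GABARAPL2, to it. SQSTM1 links ubiquitinated cargo to these proteins. Mitophagy is the same route for mitochondria, which are tagged either by the kinase PINK1 and ubiquitin or by receptors in the outer mitochondrial membrane, among them BNIP3 and BNIP3L. Much of the pathway is regulated on proteins, by phosphorylation, lipidation and turnover, none of which is measured by RNA counts.

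None of the 10 genes was called as different between VENins and VENsens lines. In edgeR's quasi-likelihood test with the line number as a block, 0 of the 10 had an adjusted p under 0.05, against 33 of 16756 genes tested (0.197%). At an unadjusted p under 0.05 the count was also 0 of 10, while 16.2% of all tested genes were below that value. DESeq2 with the line number called 0 of the 10 as well, against 217 of 16756 genes tested (1.295%). Adjusted p-values were missing for PINK1 and BNIP3 because of their low counts, also in DESeq2 without the line number. Over all tested genes they were missing for 3899 with the line number and for 4550 without it. Such genes could not be called but stay in the number tested, so that the DESeq2 shares given are lower than among genes with an adjusted p. The fitted difference was positive for 4 of the 10, ATG5, MAP1LC3B, GABARAPL2 and BNIP3L, and negative for the other 6. Their median was -0.02 on the log2 scale, beside 0.00 over all tested genes, but 0.007 with length and GC trends taken out and 0.008 without line pair 3, so that its sign is not settled. In CPM, all VENins lines lay above all VENsens lines for 1 of the 10, ATG5, which was the case for 2.36% of tested genes, and all lay below for 1 of the 10, BECN1, which was the case for 2.30%. Each of these counts is a single gene, and nothing about the 10 genes as a group is read from them.

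**Figure D1:**
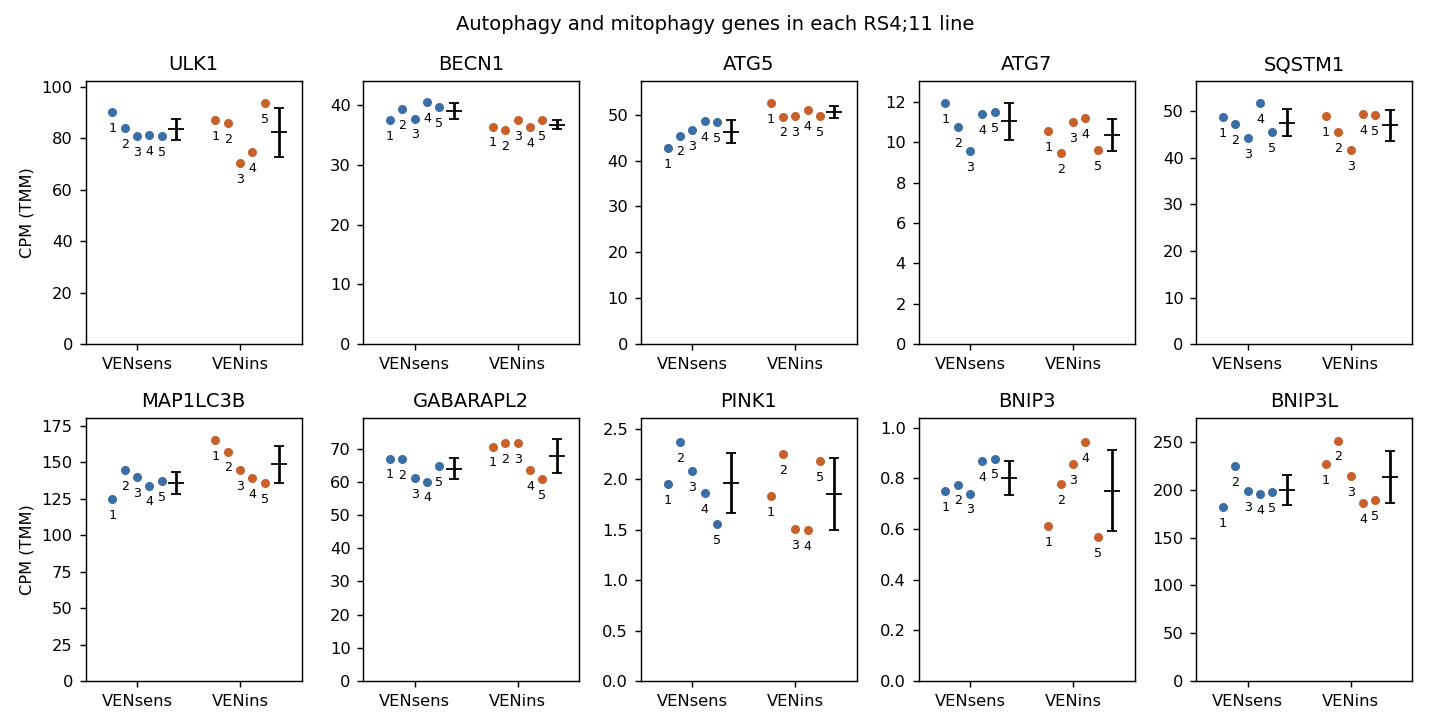
CPM after TMM normalization (vertical axis, from 0) of each of the 10 genes in the 5 VENsens (blue) and 5 VENins (orange) lines, with line numbers under the points and the mean ± SD in black. The groups overlap for every gene except ATG5, where VENins lines lie at 49.6 to 52.6 CPM and VENsens lines at 42.6 to 48.5 CPM, and BECN1, where they meet at 37.6 CPM.

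The intervals given here are those of the edgeR fit with all lines and the line number as a block, and limit what could have gone unseen in that fit. For the 7 genes ULK1, BECN1, ATG5, SQSTM1, MAP1LC3B, GABARAPL2 and BNIP3L, the 95% intervals of the fold lay within 0.864 and 1.195. Other settings reach beyond these limits. DESeq2 with the line number gave log2 standard errors of 0.073 for BECN1 and 0.072 for ATG5. Without line pair 5, MAP1LC3B had a log2 fold change of 0.158 (SE 0.064). The interval of ATG7, which has fewer counts, ran from 0.825 to 1.077. PINK1 and BNIP3 were the least certain, with intervals of 0.731 to 1.201 and 0.677 to 1.295, since they rest on 37 to 59 and on 13 to 24 counts per library. At mean counts of 45.6 and 18.7, counting error alone gives a coefficient of variation of 14.8% for PINK1 and 23.1% for BNIP3. The observed ones were 15.2% and 8.22% in VENsens lines and 19.3% and 21.3% in VENins lines, so that a spread between lines beyond counting error could not be seen for BNIP3 at this depth.

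**Figure D2:**
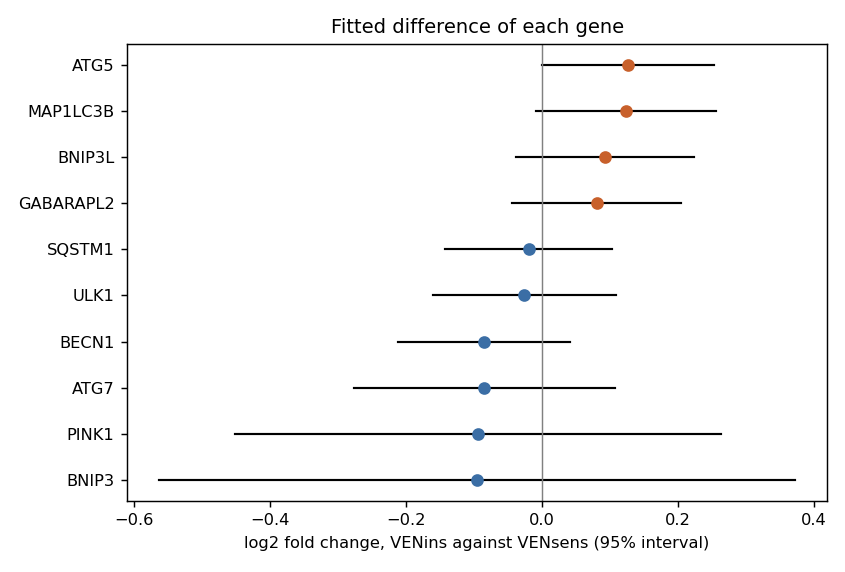
Fitted log2 fold change of VENins against VENsens lines (horizontal axis) for each gene, with its 95% interval from edgeR's quasi-likelihood fit, orange where positive and blue where negative. All 10 intervals include 0, that of ATG5 with its lower end at -0.00024, and those of PINK1 and BNIP3 are the widest.

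The 10 genes differ far more from one another than between the groups. Divided by the length of the merged exons, the level of BNIP3L was highest, at 46.4 CPM per kb ± 3.65 (SD, n = 5) in VENsens lines, followed by MAP1LC3B at 25.6 ± 1.41 and GABARAPL2 at 21.1 ± 1.04. ULK1 came next at 11.0 CPM per kb ± 0.526, then ATG5 at 8.19 ± 0.427, SQSTM1 at 6.203 ± 0.379 and BECN1 at 6.08 ± 0.201. ATG7 at 1.25 CPM per kb ± 0.104, PINK1 at 0.406 ± 0.0619 and BNIP3 at 0.151 ± 0.0124 closed the order, BNIP3 without the counts of its pseudogenes. The ranks by group mean were equal in VENins lines. SQSTM1 and BECN1 overlapped in both groups and cannot be ordered, and ULK1 and ATG5 overlapped in VENins lines, where the lowest ULK1 line had 9.26 and the highest ATG5 line 9.30 CPM per kb. All other neighbours were separated in both groups. The length used matters for the level, since by longest transcript BNIP3L stood at 55.4 and MAP1LC3B at 44.1 CPM per kb in VENsens lines. SQSTM1 at 15.9 then moved ahead of ULK1 at 15.7 and ATG5 at 14.4 in VENsens lines. In VENins lines ATG5 had 15.71, SQSTM1 15.70 and ULK1 15.49 CPM per kb, so that the order of these genes by that length is not settled.

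**Figure D3:**
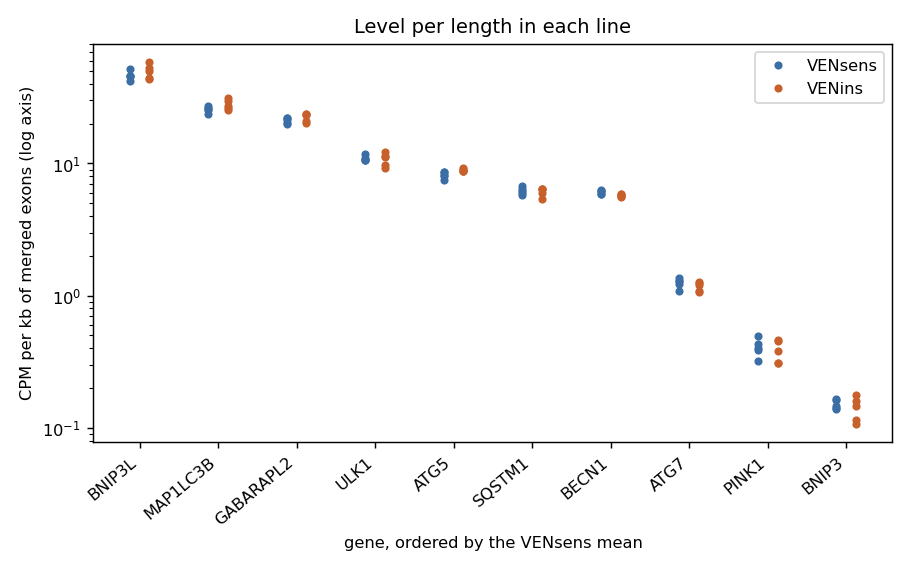
CPM per kb of merged exons (log axis) of each gene in each VENsens (blue) and VENins (orange) line, ordered by the VENsens mean. The order runs from BNIP3L, at 42.2 CPM per kb or more in every line, to BNIP3, at 0.177 or less in every line.

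ULK1 (ENSG00000177169, chr12:131894651-131923167, plus strand, GRCh38) encodes the protein kinase that is activated by AMPK and held back by mTORC1. Its level in VENsens lines 1 to 5 was 90.1, 84.1, 80.9, 81.1 and 80.8 CPM, and in VENins lines 1 to 5 it was 87.0, 85.8, 70.5, 74.5 and 93.4 CPM. VENins lines 3 and 4 had the lowest values of all 10 libraries and VENins line 5 the highest, so that the spread among VENins lines (SD 9.49) was larger than among VENsens lines (SD 4.00) while the means, 82.2 and 83.4 CPM, were close. The fitted log2 difference was -0.03 (SE 0.06, edgeR adjusted p = 0.881). It was 0.02 without line pair 3 and 0.03 after length and GC trends were taken out, but -0.085 without line pair 5 and -0.071 without the block and VENins line 5, the highest ULK1 library. The 5 tested genes of the initiation complex, ULK1 among them, had 1 positive and 4 negative differences, with a median of -0.04.

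BECN1 (ENSG00000126581, chr17:42810134-42833350, minus strand, GRCh38) is a scaffold of the class III phosphatidylinositol 3-kinase complex and binds BCL-2 family proteins through a BH3 motif, which ties it to the target of VEN. The 5 VENsens lines had 37.6, 39.4, 37.8, 40.6 and 39.8 CPM, and the 5 VENins lines 36.5, 35.8, 37.6, 36.4 and 37.6 CPM. The groups met almost exactly, with 37.598 CPM in the lowest VENsens and 37.596 CPM in the highest VENins line, and with RLE scaling they overlapped, at 37.365 and 37.557 CPM. BECN1 had a log2 fold change of -0.08 (SE 0.06, edgeR adjusted p = 0.507). Its lower VENins value in each of the 5 same-numbered pairs follows from the groups not overlapping in CPM after TMM. With length and GC trends taken out the log2 fold change was -0.037. Of the exon bases of BECN1, 17.1% also belong to other genes, most of them to CNTD1, and the share of its reads there is uncertain. The 8 tested genes of the nucleation complex had 3 positive and 5 negative differences, with a median of -0.05.

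ATG5 (ENSG00000057663, chr6:106045423-106325791, minus strand, GRCh38) is joined to ATG12 and helps to place ATG8 proteins on the membrane. It had 42.6, 45.4, 46.6, 48.5 and 48.3 CPM in VENsens lines 1 to 5 and 52.6, 49.6, 49.7, 51.0 and 49.8 CPM in VENins lines 1 to 5. Every VENins line was above every VENsens line, also with RLE scaling and by library size alone, and the gap between the groups, from 48.5 to 49.6 CPM, was smaller than the range within either. The log2 fold change of 0.13 (SE 0.06, 95% interval -0.00024 to 0.25) corresponds to a 1.09-fold higher level, with an edgeR adjusted p of 0.310. Across the other settings the adjusted p ranged from 0.134 to 0.648, and without line pair 1 the log2 fold change was 0.083.

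ATG7 (ENSG00000197548, chr3:11272309-11557665, plus strand, GRCh38) is the E1-like enzyme that activates both ATG12 and the ATG8 proteins. It lay between 9.58 and 11.9 CPM in VENsens lines and between 9.48 and 11.2 CPM in VENins lines, so that the groups covered nearly the same range. ATG7 had a log2 fold change of -0.08 (SE 0.09, edgeR adjusted p = 0.692), which ran from -0.159 without line pair 3 to -0.022 with length and GC trends taken out. VGLL4 overlaps 18.1% of its exon bases, where reads cannot be assigned with certainty. ATG5 and ATG7, which act in the same conjugation system, had fitted differences of opposite sign, neither of which passed the test. The 10 tested conjugation enzymes had 7 positive and 3 negative differences and a median of 0.06, beside 51.1% positive over all tested genes. Of them 0 were called, beside 0.197% of all tested genes, and such a small list can show little else.

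MAP1LC3B (ENSG00000140941, chr16:87383995-87404779, plus strand, GRCh38), the ATG8 protein most used as an autophagosome marker, had 124.8, 145, 139.9, 134.1 and 137 CPM in VENsens lines 1 to 5. In VENins lines 1 to 5 it had 165.3, 157.5, 145, 139.3 and 136 CPM. VENins lines 1 and 2 were above every VENsens line, while lines 4 and 5 were within the VENsens range. The log2 fold change of 0.12 (SE 0.06) was positive in 4 of 5 pairs and did not pass the test (edgeR adjusted p = 0.344, and 0.118 to 0.680 across the other settings). It was 0.054 without line pair 1 and at most 0.158, without line pair 5.

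GABARAPL2 (ENSG00000034713, chr16:75566351-75577881, plus strand, GRCh38), an ATG8 protein that also takes part in transport within the Golgi, had 67.1, 66.9, 61.3, 60.2 and 64.7 CPM in VENsens lines. VENins lines 1 to 5 had 70.7, 71.8, 71.7, 63.7 and 60.9 CPM. VENins lines 1, 2 and 3 were above every VENsens line, and lines 4 and 5 within the VENsens range. GABARAPL2 had a log2 fold change of 0.08 (SE 0.06, edgeR adjusted p = 0.525), which was 0.043 without line pair 3 and 0.047 with length and GC trends taken out, but 0.123 without line pair 5 and 0.1175 without the block and VENins line 5.

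Per length, the other ATG8 genes were below MAP1LC3B and GABARAPL2. GABARAP had 8.38 CPM per kb in VENsens and 8.93 CPM per kb in VENins lines, from 19.0 CPM ± 1.34 and 20.2 CPM ± 1.55, and GABARAPL1 had 1.68 and 1.69 CPM per kb, from 6.86 CPM ± 0.467 and 6.91 CPM ± 1.35. MAP1LC3A and MAP1LC3B2 had at most 3 and 5 counts in any library, and MAP1LC3C had 0 in every library, where a count of 0 allows up to 0.145 CPM in the shallowest one. MAP1LC3B2 is a near copy of MAP1LC3B, and the annotated MAP1LC3B pseudogene had 0 counts. How many reads of MAP1LC3B were set aside because they match a copy equally well was not tested. Of the 4 tested genes of the family 3 had positive differences, with a median of 0.09, beside 51.1% positive over all tested genes. Of the family 0 were called, beside 0.197% of all tested genes.

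SQSTM1 (ENSG00000161011, chr5:179806398-179838078, plus strand, GRCh38), the cargo receptor p62, is itself degraded by autophagy and is induced by the transcription factor NRF2. Its level was 44.2 to 51.7 CPM in VENsens and 41.5 to 49.3 CPM in VENins lines. The log2 fold change was -0.02 (SE 0.06, edgeR adjusted p = 0.908), and from -0.0022 without line pair 3 to -0.052 without line pair 5. The exons of SQSTM1 share 22.0% of their bases with other genes, chiefly MRNIP on the opposite strand, and the library kit does not mark strand. Among the 7 tested soluble cargo receptors, 3 differences were positive and 4 negative, with a median of -0.01.

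PINK1 (ENSG00000158828, chr1:20633455-20651511, plus strand, GRCh38) is the mitochondrial kinase that phosphorylates ubiquitin on damaged mitochondria. It had 1.96, 2.37, 2.08, 1.86 and 1.56 CPM in VENsens lines and 1.83, 2.25, 1.505, 1.49 and 2.18 CPM in VENins lines. Both groups covered nearly the same range, and the log2 fold change was -0.09 (SE 0.17, edgeR adjusted p = 0.840), which was 0.00016 without line pair 3 and -0.236 without line pair 5. Its antisense gene PINK1-AS covers 39.4% of its exon bases and averaged 6.46 CPM ± 0.435 in VENsens lines and 6.39 CPM ± 0.772 in VENins lines. Without strand, reads of PINK1 and PINK1-AS cannot be told apart where they overlap, and the level of PINK1 is uncertain for that reason. Of the 6 tested genes of ubiquitin-dependent mitophagy, 3 differences were positive and 3 negative.

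BNIP3L (ENSG00000104765, chr8:26382898-26505636, plus strand, GRCh38), also known as NIX, is an outer membrane receptor that removes mitochondria during red cell maturation. It had 181.9, 225.2, 199, 196 and 197.7 CPM in VENsens lines and 227.6, 251.9, 214.7, 186.4 and 189.8 CPM in VENins lines. VENins lines 1 and 2 were the highest of all 10 libraries, and lines 3, 4 and 5 fell within the VENsens range. Its log2 fold change was 0.09 (SE 0.06, edgeR adjusted p = 0.486), positive in 3 of 5 pairs, and it ranged from 0.035 without line pair 1 to 0.138 without the block and VENins line 5.

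BNIP3 (ENSG00000176171, chr10:131966455-131982013, minus strand, GRCh38), the closest relative of BNIP3L and a textbook target of hypoxia-inducible factor, had the lowest level per length of the 10 by the counts on the gene itself. It had 0.749, 0.775, 0.740, 0.867 and 0.878 CPM in VENsens lines and 0.611, 0.776, 0.854, 0.943 and 0.566 CPM in VENins lines. VENins lines 1 and 5 were the lowest libraries and VENins line 4 the highest, on at most 24 counts. The log2 fold change of -0.10 (SE 0.22, edgeR adjusted p = 0.875) became 0.03 without line pair 5 and -0.181 without line pair 3. The annotation lists 39 BNIP3 pseudogenes, of which 16 had counts, together 15.03 CPM ± 1.39 in VENsens lines and 14.8 CPM ± 1.79 in VENins lines. The pseudogene BNIP3P11 alone had mean values of 11.8 and 10.8 CPM. Reads that match BNIP3 and a copy equally well cannot be placed, so that its level is uncertain. BNIP3P41 had 2.17 CPM ± 0.471 and 3.06 CPM ± 0.876 (log2 fold change 0.48, unadjusted p = 0.0198, edgeR adjusted p = 0.216). With the counts of all copies added and divided by the 5.325 kb of BNIP3 exons, BNIP3 would have 2.97 CPM per kb ± 0.262 in VENsens lines and 2.92 CPM per kb ± 0.333 in VENins lines, which would rank it 8 of 10, above ATG7 and PINK1. Per kb of exon, BNIP3L exceeded BNIP3 by 244-fold to 461-fold in the individual lines, but by 14.3-fold to 20.4-fold with the copies added. This rank and these ratios depend on the length chosen, since the copies are shorter, such as BNIP3P11 with 0.563 kb and 21.0 CPM per kb in VENsens lines. The log2 fold change with the copies added was -0.027 (SE 0.087, edgeR adjusted p = 0.915).

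RefSeq promoters (GRCh38.p14) were found by symbol for 8 of the 10 genes and not for PINK1 and BNIP3L. For 5 of these the stretch free of exons lies upstream of the annotated gene, for ATG5 and BECN1 it lies inside the gene, at a start other than the outermost one, and MAP1LC3B has none. The stretches of BNIP3, a known hypoxia target, and GABARAPL2 are printed 5′ to 3′ up to the first exon. They were chosen because they hold the most hypoxia core letters of the 5, while ULK1 holds them 1 time and ATG7 and SQSTM1 0 times. Lengths were not equal, from 41 bases for SQSTM1 to 250 for ULK1, and the counts were not adjusted for length. Capitals mark ACGTG and GCGTG, the core letters of hypoxia response elements, on either strand (CACGT and CACGC on the strand shown).
BNIP3: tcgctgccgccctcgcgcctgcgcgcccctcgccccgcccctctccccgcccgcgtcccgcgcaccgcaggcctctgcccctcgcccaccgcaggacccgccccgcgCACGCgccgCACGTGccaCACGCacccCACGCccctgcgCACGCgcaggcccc
GABARAPL2: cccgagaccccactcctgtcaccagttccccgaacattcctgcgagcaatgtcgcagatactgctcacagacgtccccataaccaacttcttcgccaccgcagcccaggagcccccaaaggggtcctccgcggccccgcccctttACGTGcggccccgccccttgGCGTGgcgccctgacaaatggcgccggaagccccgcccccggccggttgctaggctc
The BNIP3 stretch (chr10:131982014-131982173, minus strand) has 160 bases with a GC content of 83.8% and holds the core letters 6 times. Of these, 4 are GCGTG and 2 are ACGTG, the latter on the opposite strands of the palindrome CACGTG, an E-box that overlaps the core. Among 35093 promoter windows of the same length and distance from the start, 29.02% hold either core at least 1 time and 3.23% hold CACGTG. Their median GC content is 56.25%, below that of the BNIP3 stretch, and the share with 6 matches was not counted. The GABARAPL2 stretch (chr16:75566129-75566350, plus strand) has 222 bases with a GC content of 68.0% and holds the core letters 2 times. The share of windows of that length with at least 1 is 39.6%, at a median GC content of 57.66%, and the share with 2 was not counted. These are matches of letters only.

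The wider pathway was described with 78 genes in 10 role lists, the 10 genes included, of which 73 were tested. Of these, 35 had positive and 38 negative differences, 47.9% positive beside 51.1% of all tested genes, and their median log2 fold change was -0.01 beside 0.00, with a sign that changed between settings. EdgeR's quasi-likelihood test called 0 of the 73, beside 0.197% of all tested genes. An unadjusted p was under 0.05 for 7, 4 of them positive, beside the 16.2% of all genes. DESeq2 called 0 with the line number and 2, TAX1BP1 and VAMP8, without it, which is 2.74% of the 73 beside 4.41% of all tested genes. The membrane supply list, with the lipid transfer and scramblase proteins that feed the growing membrane, had 3 positive and 6 negative differences, and the fusion list 3 and 4. The list of upstream kinases and transcription factors had 5 and 4. Of the 8 tested membrane mitophagy receptors, BNIP3 and BNIP3L among them, 4 differences were positive and 4 negative. An unadjusted p was under 0.05 for 2 of the positive and 1 of the negative ones, and 0 were called.

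VAMP8, a SNARE that fuses autophagosomes with lysosomes, had the smallest p of the pathway genes beyond the 10. It had 75.4, 64.9, 72.4, 67.2 and 70.3 CPM in VENsens lines and 77.5, 84.5, 82.8, 77.3 and 84.1 CPM in VENins lines, with no overlap. The log2 fold change was 0.21 (SE 0.06), a 1.16-fold higher level, with an edgeR adjusted p of 0.114. It was called by DESeq2 without the line number (adjusted p = 0.00605) and by edgeR without the line number and without VENins line 5 (adjusted p = 0.0454), in a range up to 0.561 across settings. TAX1BP1, a cargo receptor related in role to SQSTM1, had 32.5 to 33.9 CPM in VENsens lines and 42.3, 41.2, 38.5, 33.7 and 35.8 CPM in VENins lines. VENins line 4 was within the VENsens range and the other 4 above it, and the log2 fold change was 0.21 (SE 0.07, edgeR adjusted p = 0.150). It was called by DESeq2 without the line number (adjusted p = 0.0346), in a range up to 0.561 across settings. EPG5, a tether of autophagosomes to lysosomes, averaged 38.6 CPM ± 1.895 in VENsens lines and 34.6 CPM ± 1.13 in VENins lines (log2 fold change -0.16, SE 0.06, edgeR adjusted p = 0.226). With length and GC trends taken out, the EPG5 value was -0.046 (edgeR adjusted p = 0.648, within 0.0766 to 0.648 across settings).

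**Figure D4:**
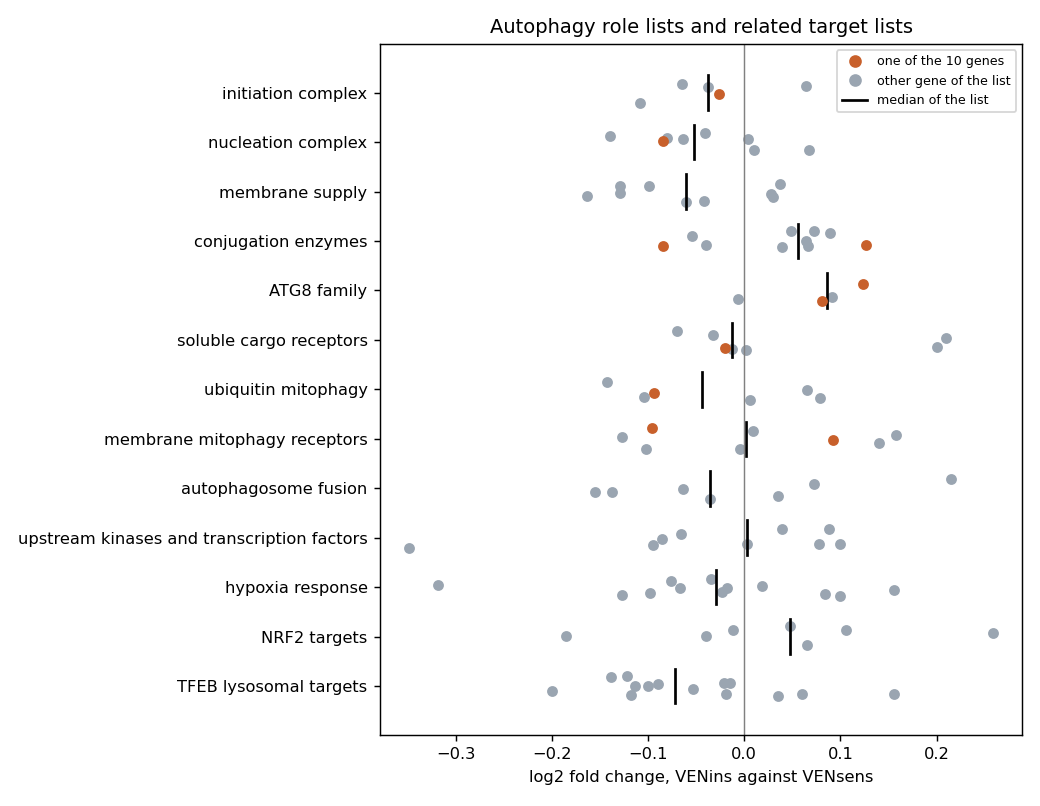
Log2 fold change of VENins against VENsens lines (horizontal axis) for the tested genes of each autophagy role list and of 3 target lists, with the 10 genes in orange, other genes in grey and the list median as a black bar. Medians lie between -0.07 for the TFEB lysosomal targets and 0.09 for the ATG8 family.

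Programmes that contain some of these genes were described by their other targets. Of 12 tested hypoxia response genes 4 had positive and 8 negative differences, with a median of -0.03, which was -0.074 without line pair 1 and 0.016 with length and GC trends taken out. NDRG1, a gene strongly induced by hypoxia, had 25.1 to 33.3 CPM in VENsens and 21.6 to 23.4 CPM in VENins lines, a log2 fold change of -0.32 (SE 0.07) and an edgeR adjusted p of 0.0691, which ranged from 0.00398 to 0.484 across settings and was under 0.05 in 5 of 15. LDHA, which makes lactate from pyruvate, had a fitted difference of the other sign that did not pass the test (log2 fold change 0.16, edgeR adjusted p = 0.266). It had 752 CPM ± 63.8 in VENsens lines and 837 CPM ± 66.1 in VENins lines, with overlap. Its log2 value ran from 0.104 without line pair 1 or 2 to 0.222 without line pair 5. Among 7 tested NRF2 targets 4 differences were positive and 3 negative, with a median of 0.05, which was 0.022 without line pair 1 and -0.0013 without line pair 2. NQO1, a quinone reductase, averaged 5.44 CPM ± 0.399 in VENsens lines and 6.52 CPM ± 0.498 in VENins lines (log2 fold change 0.26, edgeR adjusted p = 0.248). SLC7A11, the cystine transporter, was at 66.9 CPM ± 6.99 and 58.6 CPM ± 1.23 (log2 fold change -0.19, edgeR adjusted p = 0.192), with log2 values of -0.254 without line pair 1 and -0.119 with length and GC trends taken out.

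TFEB is the transcription factor that raises autophagy and lysosome genes together. Its 14 tested lysosomal targets had 3 positive and 11 negative differences, beside 51.1% positive over all tested genes. Their median was -0.07 beside 0.00 over all genes. The median was -0.036 without line pair 1 and -0.041 with length and GC trends taken out. EdgeR called 0 of the 14, beside 0.197% of all tested genes. An unadjusted p was under 0.05 for 2 of the 14, 1 in each direction, beside 16.2% of all tested genes. TPP1, a lysosomal peptidase, had 91.9 to 105.7 CPM in VENsens lines and 80.6 to 88.0 CPM in VENins lines, without overlap. Its log2 fold change was -0.20 (SE 0.05, edgeR adjusted p = 0.113, and 0.0062 to 0.540 across settings). It was called by DESeq2 without the line number (adjusted p = 0.0062) and by edgeR without the line number and without VENins line 5 (adjusted p = 0.0365). GLA, a lysosomal galactosidase, averaged 33.2 CPM ± 1.91 in VENsens lines and 37.1 CPM ± 2.53 in VENins lines (log2 fold change 0.16, edgeR adjusted p = 0.289), with log2 values from 0.095 without line pair 2 to 0.207 without line pair 5.

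Among 11927 tested protein-coding genes, those whose log2 CPM was most like that of ATG5 over the 10 libraries were CCNA2 (Pearson r = 0.952), ZNF207 (0.948), HSP90AA1 (0.948), PLA2G4C (0.946) and FBXO5 (0.933). CCNA2 is a cyclin of S phase and mitosis and FBXO5 an inhibitor of the anaphase-promoting complex. With the group means removed, r was 0.947 for CCNA2 and between 0.874 and 0.917 for the other 4, so that the likeness lay largely within the groups. These values are the highest among many genes over 10 points that share depth and composition, and are a description only.

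**Figure D5:**
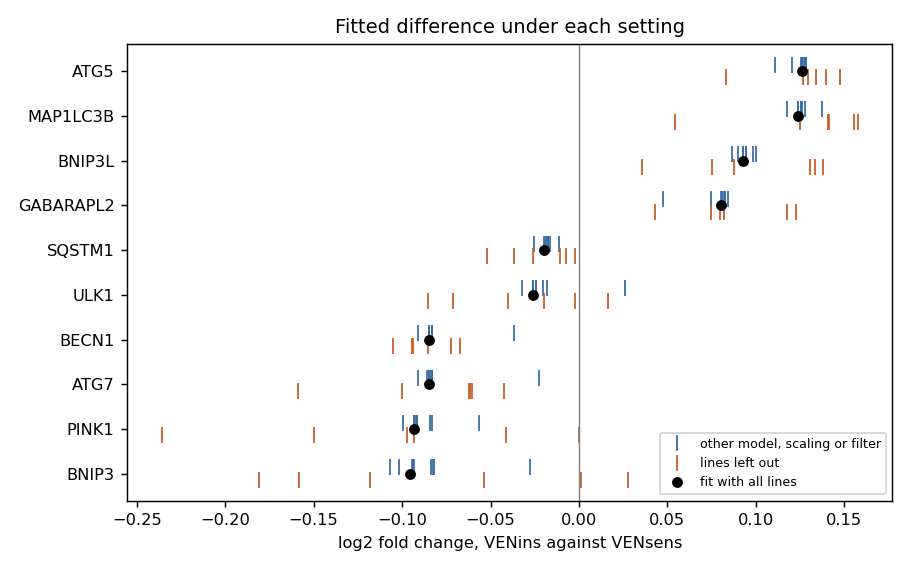
Log2 fold change of each gene (horizontal axis) in the fit with all lines (black), with another model, scaling or filter (blue) and with lines left out (orange). ATG5, MAP1LC3B, BNIP3L and GABARAPL2 stay above 0 in all 15 other settings and SQSTM1, BECN1 and ATG7 below 0, while ULK1, PINK1 and BNIP3 cross it.

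Across the 15 other settings 0 of the 10 genes were called in any, with adjusted p-values missing for PINK1 and BNIP3 in both DESeq2 settings. At an unadjusted p under 0.05, the largest count was 3, ATG5, MAP1LC3B and GABARAPL2, without line pair 5 and also without the line number and VENins line 5. Of all tested genes, 16.45% and 20.6% were below that value in these settings, and 3 of 10 is too few to compare with such shares. Without that library and the line number, the lowest edgeR adjusted p was 0.118, for MAP1LC3B, with a log2 fold change of 0.16.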

How the data were processed

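RNA-Seq of 10 RS4;11 libraries, 5 VENsens and 5 VENins lines, was used. The authors deposited raw read counts per Ensembl gene and 5 summary lines per library, which were left out of library sizes. The submitters' processing notes name bcl2fastq 2.20.0.422, Bowtie2 2.3.5.1, SAMtools 1.9, HTSeq 0.9.1 and the hg19/GRCh37 build. Between 52.7% and 54.2% of reads were counted on genes. A further 24.6% to 26.2% were left out for low alignment quality, and how many of these match BNIP3 or its copies was not tested. The 37 genes of the mitochondrial chromosome were at 0 in all 10 libraries. This is not read as an absence of mitochondrial transcripts, and its cause was not tested. Names, lengths and positions came from GENCODE 29 (GRCh38), a different build, matched by identifier only.

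Counts were filtered with filterByExpr (minimum count 10, minimum total 15), scaled by TMM and fitted with edgeR 4.0.16 (R 4.3.3), using its quasi-likelihood F test. The model held the line number as a block, after the paired analysis that the study's methods describe. p-values were adjusted by Benjamini-Hochberg over all tested genes, and "called" means an adjusted p under 0.05. Alternatives included DESeq2 1.42.0. Log2 CPM used a prior count of 2. Steps were tested on simulated data.

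The 10 genes and the lists were chosen with earlier results of these data known. Named besides them were list genes that were called, otherwise the 3 pathway genes and 2 genes of each target list with the smallest p, copies of the 10 genes, and the 5 genes most like ATG5.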

Additional observations from a re-analysis of the deposited data

Results flagged for a closer look

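In each of the 20 sets of 5 lines, 10 genes in VENsens and in VENins lines, the farthest line was compared with its nearest neighbour by Dixon's ratio of gap to range. The ratio exceeded its critical value of 0.71 in 0 of the 20 sets, where chance gives about 1 in 20.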

How the results depend on the processing

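The count of members called was 0 in all 15 alternatives. Adjusted p-values were missing for PINK1 and BNIP3 in DESeq2 with and without the line number, where they could not be called. Of 150 log2 fold changes of the 10 genes, 145 kept their sign and stayed uncalled. The exceptions were ULK1 with length and GC trends taken out (0.026) and without line pair 3 (0.017), PINK1 without line pair 3 (0.00016), and BNIP3 without line pair 5 (0.028) and without both the block and VENins line 5 (0.0014). The cause was not tested. This last alternative was chosen after seeing the data.

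Over all genes, 33 calls became 149 without the replicate block, 217 in DESeq2 with the block and 739 without it, 664 with no filter on low counts, 140 with length and GC trends taken out and 502 without the block and VENins line 5. With a line pair left out the count ranged from 6 (pair 2) to 331 (pair 4), with 57, 17 and 9 without pairs 1, 3 and 5. Line numbers do not appear to pair the libraries, since deviations from the group means correlated between -0.103 and 0.028 for the same number. Wider autophagy genes called were 0 with the block and 2 in DESeq2 without it, 2.74% beside 4.41% of all tested genes. Without the block and VENins line 5 there was 1, which is 1.37% beside 2.97% of all tested genes. The wider median of -0.006 was positive without the block (0.0033), in DESeq2 without it (0.0053) and with length and GC trends taken out (0.0103). The median of the 10 genes (-0.023) was 0.0072 with these trends taken out and 0.0084 without pair 3. The hypoxia median of -0.029 became -0.065 with no filter and 0.016 with length and GC trends taken out. With 1 line pair left out, the wider median (-0.006) ranged from -0.027 to -0.00058, the hypoxia median from -0.074 to -0.017, the NRF2 median (0.047) from -0.0013 to 0.059, and the log2 fold changes of ULK1 from -0.085 to 0.017, of PINK1 from -0.236 to 0.00016 and of BNIP3 from -0.181 to 0.028. In these settings the TFEB target median (-0.072) ranged from -0.087 to -0.036, MAP1LC3B from 0.054 to 0.158 and BNIP3L from 0.035 to 0.134, with the smallest sizes without pair 1. The cause was not tested.

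Low counts limit PINK1 and BNIP3. Bowtie2 does not split reads over introns, overlapping genes and pseudogenes take reads, and RNA levels do not measure autophagic flux.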
